A study of Mus musculus with 68 samples.

Results

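The comparison was between long-bone mesenchymal stromal cell cultures from wild-type (WT) mice aged 12 months and 3 months. It used the 8 WT cultures of the 17 biological samples of the series: S2, S6, S7 and S13 for 12 months (WT 12M) and S3, S4, S5 and S12 for 3 months (WT 3M). A culture was taken as WT when its labels give the genotype Ezh2 WT, and the 4 columns of counts of each culture were summed. Gene expression was measured by RNA sequencing of total RNA from trypsinised primary cultures in regular growth medium. The library kit was TruSeq RNA v2, whose reads carry no strand information, so a gene and an antisense partner cannot be told apart.

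WT mice had the genotype Ezh2+/+:Prrx-1-Cre, with both Ezh2 alleles intact, so every WT culture also carried the recombinase transgene. Prrx1 regulatory sequence drives this Cre in the early limb bud mesenchyme. Heterozygotes (Het), with 1 floxed Ezh2 allele and the same Cre, gave 3 cultures at 3 months and 6 at 12 months. They entered the estimate of the spread, and their gene levels appear below only where the age difference was compared between genotypes. The labels name both sexes in each WT group: S3 and S4 are labelled female and S5 and S12 male at 3 months, and S6 and S7 female and S2 and S13 male at 12 months. The series text speaks of 3 biological samples per group where the labels give 4 in each WT group. Whether each culture came from 1 mouse is not stated, so the p-values below measure the spread between cultures, which may in part be technical. For edgeR, DESeq2 and voom that spread was estimated over all 17 cultures, Het included, unless the WT samples alone are named.

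Long-bone stromal cultures hold skeletal progenitors that can form bone, cartilage and fat, together with fibroblasts and cells carried over from the marrow, vessels and nerves. In culture, their transcriptome follows oxygen, growth signals, cell density and stress as well as the age of the donor. Low oxygen stabilises the hypoxia-inducible factors (HIFs), which bind the core sequence ACGTG or GCGTG near genes of glycolysis, mitophagy, collagen hydroxylation and angiogenesis.

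The WT libraries held 16856720 to 24212728 counts. Ranges of 3-month and 12-month depth overlapped (2-sided exact permutation p = 0.286, where 4 against 4 cannot go below 0.0286). The mesenchymal genes Col1a1 (4134 to 13360 CPM), Pdgfra (96 to 385 CPM) and Prrx1 (211.5 to 758 CPM) were present in all 8 libraries; levels here and below are CPM, read counts relative to library size after TMM scaling. Single libraries stood apart. S6 carried 230.7 CPM of Sox10 and 93.6 CPM of Foxd3, neural crest and Schwann cell factors that stood at no more than 3.89 and 1.55 CPM in the other 7 libraries. S5 carried 18.5 CPM of Cdh5 and 27.8 CPM of Pecam1, endothelial junction genes at no more than 2.26 and 3.69 CPM elsewhere. The macrophage gene Adgre1 ran from 0.76 CPM in S13 to 122.2 CPM in S2. Sex-linked transcripts went against the labels at 12 months. S2 and S13, labelled male, had Xist at 374.6 and 307.8 CPM of the library total and a mean over Y-linked genes of 0 and 0.136 CPM. In S6, whose label is female, Xist stood at 0.195 CPM and the Y-linked mean at 28.8 CPM. S7, also female by its label, held both kinds of transcript, at 78.8 and 33.7 CPM. At 3 months all 4 libraries matched their labelled sex. "12 months" below therefore means the libraries that carry that label. On the first principal component of the 500 most variable genes, which held 51.6% of the variance, S2 and S7 lay at -48.8 and -32.6 and S6 and S13 at 59.1 and 33.7, with the 3-month libraries between them at -13.1 to 18.7.

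In edgeR's quasi-likelihood test over all 17 samples, 0 of 14897 genes (0%) differed between the ages at a Benjamini-Hochberg adjusted p under 0.05, and the lowest adjusted p was 0.274. At an unadjusted p under 0.05, 695 genes were higher at 12 months (4.67%) and 529 were lower (3.55%). DESeq2 on the same counts called 25 genes higher (0.168%) and 28 lower (0.188%). Voom with sample quality weights called 849 higher (5.7%) and 659 lower (4.42%), and it weighted S3 at 7.32 and S5, S6 and S13 at 0.306, 0.327 and 0.449. The call therefore depends on the tool. In 601 genes (4.03%) all 4 libraries at 12 months lay above all 4 at 3 months, and in 606 genes (4.07%) all lay below, which is called ranges apart here. Of all tested genes, 8017 were fitted higher (53.8%) and 6880 lower (46.2%), with a median log2 difference of 0.04. The biological coefficient of variation was 0.512 over the 17 samples and 0.434 over the 8 WT samples. Over the tested genes, the median standard deviation of log2 CPM was 0.40 in WT 3M and 0.41 in WT 12M. It was 0.26 in Het 3M and 0.64 in Het 12M.

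Markers of other cell types stood as follows, and their part in the results below was not tested. The summed level of 20 endothelial genes was 143.2 to 282.1 CPM at 3 months and 90.7 to 126.6 CPM at 12 months, without overlap (2-sided exact permutation p = 0.0286, the smallest 8 samples allow). Their median log2 difference was -0.92, and 0.18 without S5. Their mean log2 CPM overlapped, at -0.311 to 2.57 at 3 months and -0.375 to 0.905 at 12 months. The same exact permutation test was run on each cell type list without adjustment for their number, and the next smallest p was 0.143, for other blood lineages. The summed level of 33 macrophage genes was 234.3 to 2478 CPM at 3 months and 75 to 4210 CPM at 12 months, and that of 22 Schwann and neural crest genes 635.7 to 755.2 and 557.4 to 2410 CPM, both overlapping. Epcam, an epithelial gene, was at 0 in 5 of 8 libraries and the muscle gene Pax7 at 0 in 7. In bulk cultures, fewer cells of a type and less RNA per cell cannot be told apart.

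Hypoxia-responsive and glycolytic genes stood lower at 12 months as a group. Of 40 such genes tested, 36 were fitted lower at 12 months and 4 higher, with a median log2 difference of -0.75. In 19 of the 40 the ranges were apart, all lower, against 4.07% of all genes. No member passed edgeR and 7 were called lower by DESeq2. The mean log2 CPM of the list was 5.66 to 6.12 in the 3-month libraries and 4.91 to 4.99 in the 12-month libraries, so the 12-month libraries lay close together although they split widely on the first principal component. Leaving out each WT library in turn put the list median between -0.98 and -0.71, and without S6 and S7 it was -0.84, with 37 of 40 lower.

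**Figure D1:**
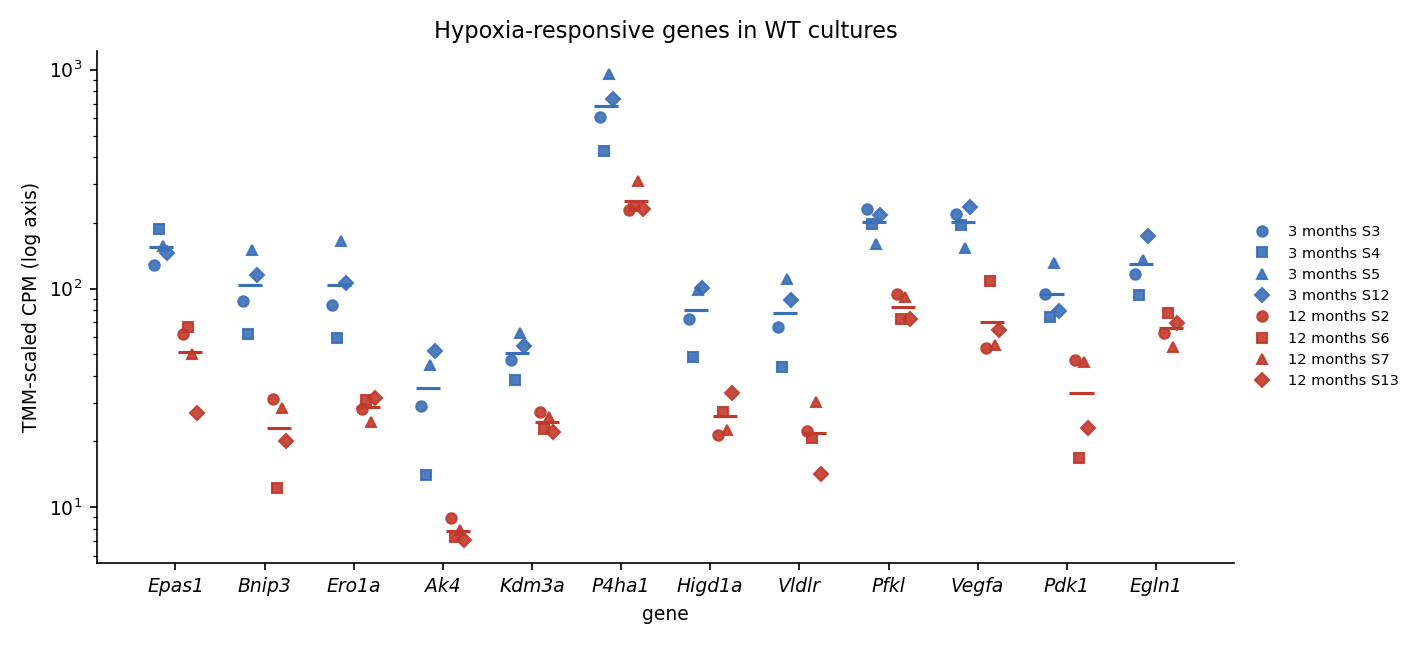
Level of 12 hypoxia-responsive genes (horizontal axis) in TMM-scaled CPM on a log axis, with 1 point per WT culture, blue at 3 months and red at 12 months, and horizontal bars for group means. In each of the 12 genes every red point lies below every blue point, for example 12.2 to 31.4 CPM against 61.8 to 149.9 CPM for Bnip3. Only genes with ranges apart are shown, so this separation follows from the choice. Ranges were apart in 19 of the 40 members of the hypoxia list. Not all genes shown belong to that list, and Epas1 is among those that do not.

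Values are listed below in the order S3, S4, S5, S12 at 3 months and S2, S6, S7, S13 at 12 months. Bnip3 (Entrez Gene 12176, chromosome 7, 138890836 to 138909506), a mitochondrial receptor of mitophagy, stood at 87.9, 61.8, 149.9 and 116 CPM at 3 months and 31.4, 12.2, 28.5 and 20.2 CPM at 12 months. The fitted log2 difference was -2.17 ± 0.42 (SE), a 4.5-fold lower level (edgeR quasi-likelihood adjusted p = 0.378, DESeq2 adjusted p = 0.00136). The groups did not overlap, and the nearest values were 61.8 CPM in S4 and 31.4 CPM in S2. Coordinates here and below are those of GRCm38.p6.

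Ero1a (Entrez Gene 50527, chromosome 14, 45283087 to 45318572), the endoplasmic reticulum oxidase that supplies disulphide bonds, stood at 84.3, 59.4, 165 and 106 CPM at 3 months and 28.1, 31.1, 24.6 and 31.7 CPM at 12 months. Its log2 difference was -1.84 ± 0.38 (edgeR adjusted p = 0.378, DESeq2 0.00377), and the 12-month values stayed between 24.6 and 31.7 CPM. Ak4, a mitochondrial adenylate kinase, stood at 29.1, 14.1, 45 and 51.8 CPM at 3 months and 8.96, 7.35, 7.91 and 7.12 CPM at 12 months. The 12-month values of Ak4 again lay close together and below all 3-month values, and its log2 difference was -2.16 ± 0.45.

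P4ha1, the catalytic subunit of collagen prolyl 4-hydroxylase, had 609.8, 427, 955 and 735 CPM at 3 months and 229, 239, 311 and 231 CPM at 12 months, a log2 difference of -1.43 ± 0.31. Kdm3a, a histone H3 lysine 9 demethylase, had 47.1, 38.2, 62.5 and 54.8 CPM at 3 months and 27.4, 22.7, 25.8 and 22.1 CPM at 12 months, a log2 difference of -1.05 ± 0.22. In both genes S5 was the highest of the 8 cultures and the groups did not overlap. Higd1a, a mitochondrial inner membrane protein, ranged over 48.5 to 100.3 CPM at 3 months and 21.4 to 33.2 CPM at 12 months and differed by -1.61 ± 0.39. DESeq2 called all 3 genes (adjusted p = 0.00733, 0.00733 and 0.0235) and edgeR none of them (adjusted p = 0.378, 0.378 and 0.407).

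Epas1 (Entrez Gene 13819, chromosome 17, 86753864 to 86833410), which encodes the alpha subunit of HIF-2 and was not on the list, had the second smallest p of all genes. It stood at 128, 188, 157 and 145 CPM at 3 months and 61.7, 66.8, 50.1 and 27 CPM at 12 months, and the groups did not overlap, with 66.8 CPM in S6 the highest at 12 months and 128 CPM in S3 the lowest at 3 months. The log2 difference was -1.59 ± 0.30 (95% confidence interval -2.22 to -0.95), with an edgeR adjusted p of 0.378 and a DESeq2 adjusted p of 0.00192. Vegfa, the main vascular endothelial growth factor, stood at 218, 196, 153 and 236 CPM at 3 months and 53.3, 108, 55 and 64.8 CPM at 12 months. S6, at 108.3 CPM, was the highest 12-month culture for Vegfa and remained below S5, the lowest at 3 months.

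The members that follow were chosen after their values were seen. The HIF prolyl hydroxylase Egln1 differed by -0.97 ± 0.26, the pyruvate dehydrogenase kinase Pdk1 by -1.51 ± 0.41 and the phosphofructokinase subunit Pfkl by -1.28 ± 0.33, each with ranges apart. The glucose transporter Slc2a1 (-1.18 ± 0.37), the lactate exporter Slc16a3 (-2.41 ± 0.74), the lactate dehydrogenase subunit Ldha (-0.97 ± 0.39) and a further collagen prolyl hydroxylase subunit, P4ha2 (-1.21 ± 0.34), also had ranges apart. Phosphoglycerate kinase Pgk1, at -0.90 ± 0.46, overlapped between the ages. Gapdh, a glycolytic enzyme, was fitted at 0.22 ± 0.40 and at -0.0055 without S6 and S7. It stood at only 1.06 to 2.65 CPM, and near-identical pseudogene copies of Gapdh, Pgk1 and Ldha can take or void their reads, so these 3 are uncertain.

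RefSeq promoter windows of GRCm38.p6, from 250 bases before to 50 bases after a gene's start, were available for 36 of the 40 members and for 11316 of the 14897 genes tested. The letters ACGTG, on either strand, were in at least 1 window of 25 of the 36 members (69.4%) and of 28.5% of all genes tested that had a window. Among the 19 members with ranges apart, 15 of 18 with a window held it (83.3%), and among the other members 10 of 18 (55.6%). The second form of the core, GCGTG, was in 24 of the 36 (66.7%) against 54.4% of all. ACGTG also lies inside CACGTG, the letters of an E-box, which were in 4 of the 36 windows (11.1%) and in 11.5% of all. Over all genes with ranges apart, ACGTG was in 34.9% of those lower and 29.2% of those higher. A match is a description of the letters and not a bound site. The list was made of hypoxia-responsive and glycolytic genes, so an excess of the core over all genes can come from that choice. The split by ranges apart was made on the same WT values, so these shares are a description. Whether HIFs acted on these genes in the cultures was not tested. The windows of 4 members with large differences are shown to place the letters, with ACGTG, or CACGT where it lies on the other strand, in capitals. In Bnip3 and Ak4 the capitals run together as CACGTG because both strands match, beginning at position -108 and -214 from the start, and in Ero1a and P4ha1 they begin at -63 and -16. Bnip3 (chr7:138909457-138909756, minus strand), Ero1a (chr14:45318523-45318822, minus strand), Ak4 (chr4:101419453-101419752, plus strand, 1 of its 4 windows, chosen for holding the letters) and P4ha1 (chr10:59323046-59323345, plus strand) read 5′ to 3′ as follows.
Bnip3: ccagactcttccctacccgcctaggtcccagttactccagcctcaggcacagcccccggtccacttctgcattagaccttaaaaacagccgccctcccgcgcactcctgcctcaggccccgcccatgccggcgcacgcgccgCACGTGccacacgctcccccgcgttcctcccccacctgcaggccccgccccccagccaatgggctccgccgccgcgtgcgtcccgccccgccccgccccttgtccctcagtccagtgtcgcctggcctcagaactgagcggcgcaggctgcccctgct
Ero1a: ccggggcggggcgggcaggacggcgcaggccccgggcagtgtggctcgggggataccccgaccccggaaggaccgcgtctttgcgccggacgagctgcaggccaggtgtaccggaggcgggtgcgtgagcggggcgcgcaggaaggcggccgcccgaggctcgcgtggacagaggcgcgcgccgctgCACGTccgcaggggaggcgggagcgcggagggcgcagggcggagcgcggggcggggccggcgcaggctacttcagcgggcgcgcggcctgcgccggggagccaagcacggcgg
Ak4: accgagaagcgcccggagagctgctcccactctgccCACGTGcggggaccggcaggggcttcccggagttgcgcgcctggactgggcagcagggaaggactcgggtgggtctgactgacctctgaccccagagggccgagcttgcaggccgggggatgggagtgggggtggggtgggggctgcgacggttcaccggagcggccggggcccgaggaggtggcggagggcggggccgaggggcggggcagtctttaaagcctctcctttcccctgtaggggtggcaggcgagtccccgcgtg
P4ha1: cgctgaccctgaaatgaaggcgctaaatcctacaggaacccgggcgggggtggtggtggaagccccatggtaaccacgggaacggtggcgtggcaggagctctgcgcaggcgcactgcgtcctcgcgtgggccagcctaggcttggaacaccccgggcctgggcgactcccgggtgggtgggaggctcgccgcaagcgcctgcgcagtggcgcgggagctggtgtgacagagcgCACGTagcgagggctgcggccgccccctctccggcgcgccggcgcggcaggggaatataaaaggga
In Kdm3a, ACGTG was in 0 of 3 windows.

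In Het cultures the corresponding levels lay closer together. As mean ± standard deviation, Bnip3 stood at 80.3 ± 41.6 CPM in Het 3M and 57 ± 20.8 CPM in Het 12M. Ero1a stood at 70.5 ± 27 CPM in Het 3M and 66.2 ± 28.5 CPM in Het 12M. Of the 40 members, 25 were fitted lower and 15 higher in Het at 12 months, with a median of -0.12. The difference between the genotypes in the age effect had an unadjusted p under 0.05 in 12 of the 40 members, against 5.76% of all genes. On the log2 scale that difference was -1.67 for Bnip3 and -1.75 for Ero1a, and no member passed edgeR's adjusted test of it. It contains the WT age difference shown above, and the members are not independent replicates, so the count of 12 is a description. The Het 12M libraries S9 and S15 had the lowest voom weights of the Het libraries, 0.312 and 0.118, and S15 held 0.212% mitochondrial counts against 1.83% to 3.22% in the others. Without these 2 the Het median of the list was -0.05, with 23 of 40 lower.

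Targets of p53 halt the cell cycle or promote repair and death after damage. Of 30 tested, 23 were lower at 12 months, for a median log2 difference of -0.42. Ranges were apart in 11 of the 30, all lower, against 4.07% of all genes, and 0 passed edgeR while DESeq2 called 2. Btg2, an antiproliferative immediate-early and p53 target gene, stood at 407, 371, 167 and 202 CPM at 3 months and 100.2, 85.9, 111 and 94.1 CPM at 12 months. All 12-month cultures lay in a narrow band below S5, the lowest at 3 months (log2 difference -1.55 ± 0.39, DESeq2 adjusted p = 0.0372). Zmat3, an RNA-binding protein downstream of p53, ranged over 154 to 218 CPM at 3 months and 86.9 to 126 CPM at 12 months and differed by -0.83 ± 0.21 (DESeq2 adjusted p = 0.0372). Mdm2, the ubiquitin ligase of p53, ranged over 182 to 496 CPM at 3 months and 129 to 178 CPM at 12 months, with S4, at 182.2 CPM, just above the 12-month range. The pro-death gene Pmaip1 differed by -1.55 ± 0.47 and Trp53inp1 by -1.20 ± 0.39, both with ranges apart. Cdkn1a, the cell-cycle inhibitor and best-known target, overlapped, with 283 to 811 CPM at 3 months and 278 to 512 CPM at 12 months. Without S6 and S7, 22 of the 30 were lower and the median was -0.31.

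Genes of endoplasmic reticulum stress and the integrated stress response were fitted lower in 29 of 36. The median was -0.39, and 8 of the 36 had ranges apart, all lower, against 4.07% of all genes. Atf4, the transcription factor at the centre of the response, stood at 148, 119, 155 and 256 CPM at 3 months and 79.5, 108, 106 and 71 CPM at 12 months, and its ranges were apart (log2 difference -0.90 ± 0.27). Its targets Chac1, a glutathione-degrading enzyme, and Ddit3, a death-promoting factor, differed by -1.77 ± 0.55 and -1.43 ± 0.46, and in both the ranges overlapped. Ppp1r15a, which restores translation by dephosphorylating eIF2, differed by -1.19 ± 0.39, with S5 at 50.3 CPM inside the 12-month range. Vldlr, a lipoprotein receptor that is also a hypoxia and stress target, stood at 66.7, 43.9, 110.3 and 88.6 CPM at 3 months and 22.4, 20.8, 30.3 and 14.2 CPM at 12 months. DESeq2 called Vldlr (adjusted p = 0.0257) and no other member. In Het, 24 of the 36 were fitted higher and the median was 0.14.

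Immediate-early genes, the first to respond to serum or handling, were fitted lower in 28 of 33. The median was -0.45, but ranges were apart in 2 of the 33 alone, Btg2 and Nr4a3, both lower, against 4.07% of all genes. The orphan nuclear receptor Nr4a1 stood at 288, 462, 44.9 and 50.3 CPM at 3 months and 20.3, 58, 27.8 and 31.2 CPM at 12 months. The 3-month cultures split, with S3 and S4 high and S5 and S12 near the 12-month values. Egr1 overlapped, with 218 to 507 CPM at 3 months and 122 to 349 CPM at 12 months, and Klf4, a zinc finger factor, was at 82.7 to 235 CPM at 3 months and 50.6 to 96.8 CPM at 12 months (DESeq2 adjusted p = 0.0267). Without S6 the median of the list was -0.64 and without S2 it was -0.29.

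The antioxidant and heat shock lists had medians near that of all genes, at 0.03 and -0.10, with both directions among their members. In the antioxidant list ranges were apart in 3 genes higher and 3 lower, and in the heat shock list in 1 higher and 2 lower, against 4.03% and 4.07% of all genes. Among the 5 antioxidant genes with the smallest p, Hmox1, which degrades haem, was at 534 to 1698 CPM at 3 months and 276 to 526 CPM at 12 months, Gclc, which starts glutathione synthesis, differed by -1.49 ± 0.47, and the cystine importer Slc7a11 by -1.47 ± 0.50, each with ranges apart. These 3 are the antioxidant genes apart and lower, while 18 of the 34 members were fitted higher and 16 lower. In the heat shock list, with 9 of 20 fitted higher and 11 lower, the inducible chaperone Hspa1b differed by -1.27 ± 0.37, with ranges apart.

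**Figure D2:**
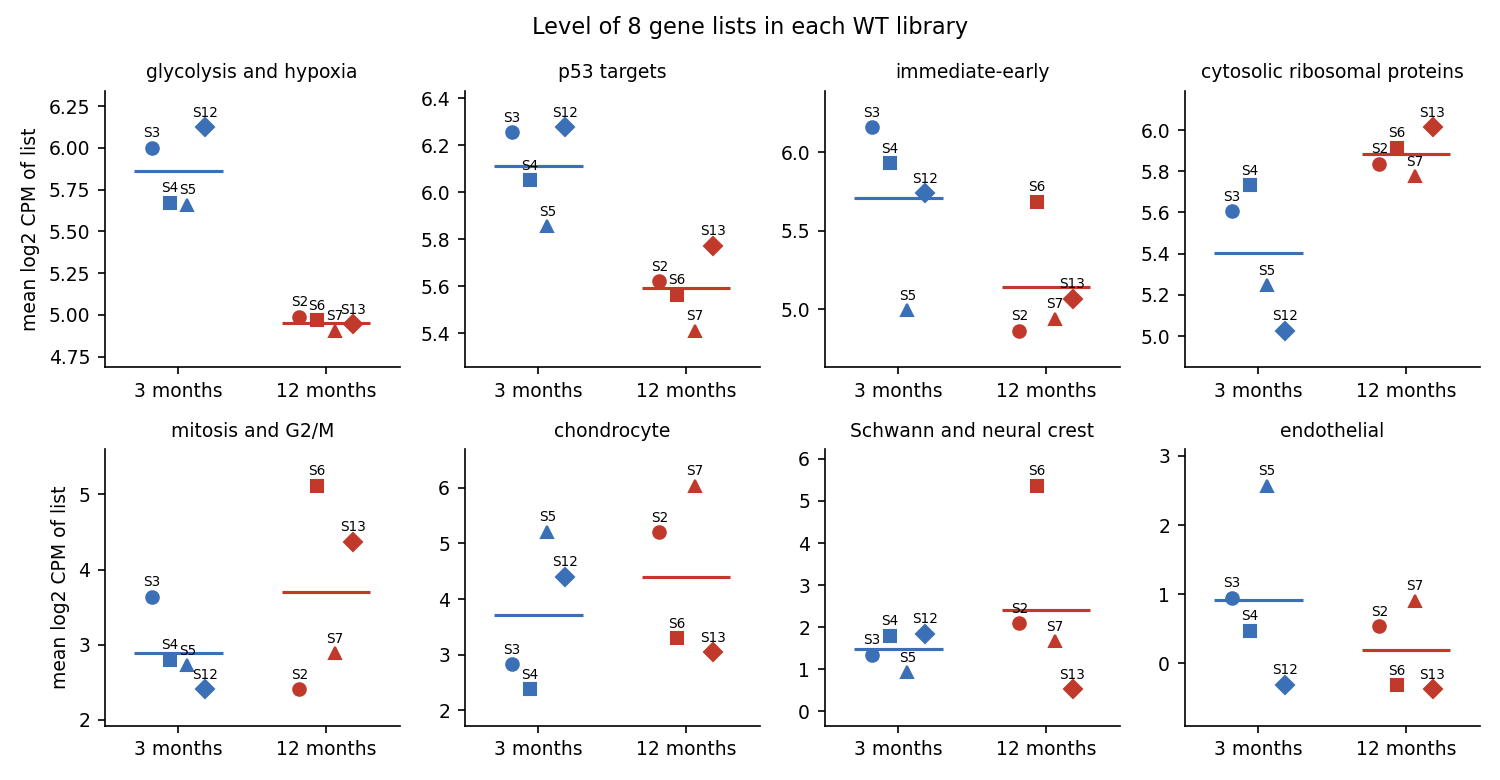
Mean log2 CPM of the tested members of 8 gene lists (vertical axes) in each WT library, blue at 3 months and red at 12 months, with bars for group means. The hypoxia and p53 levels, lower at 12 months, and the ribosomal protein levels, higher at 12 months, do not overlap between the ages. The immediate-early, mitosis, chondrocyte, Schwann and endothelial levels overlap. S6 is the highest in the mitosis and Schwann lists, S7 in the chondrocyte list and S5 in the endothelial list.

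Fkbp11 (Entrez Gene 66120, chromosome 15, 98724368 to 98728198), a peptidyl-prolyl isomerase of the secretory pathway, had the smallest p of all genes. It stood at 24.4, 23.4, 33.5 and 25.8 CPM at 3 months and 59.9, 59.5, 82.4 and 84.7 CPM at 12 months, so that the lowest 12-month culture, S6, was well above the highest 3-month culture, S5. The log2 difference was 1.42 ± 0.24 (95% confidence interval 0.91 to 1.92), a 2.67-fold higher level (edgeR adjusted p = 0.274, DESeq2 adjusted p = 0.000404). Of the 15 higher genes with the smallest p, 14 had ranges apart, as did 12 of the 15 lower ones. These 30 genes were picked by their p, so the counts are a description.

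Mdk, a heparin-binding growth factor, stood at 12.9, 17.7, 9.71 and 10.1 CPM at 3 months and 84.2, 42.5, 60.3 and 39 CPM at 12 months, a 4.48-fold higher level (log2 difference 2.16 ± 0.47). Pth1r, the receptor for parathyroid hormone, stood at 26.4, 29.9, 31.2 and 42.4 CPM at 3 months and 122, 46.1, 120.1 and 65.9 CPM at 12 months. S6 was the lowest at 12 months and S2 and S7 the highest, all above the 3-month range. Wnt5b, a Wnt ligand of cartilage, stood at 8.69, 7.59, 5.67 and 5.1 CPM at 3 months and 24.6, 15.7, 22.8 and 8.93 CPM at 12 months, and S13 was the nearest to the 3-month range. Bambi, a pseudoreceptor that dampens TGF-beta signals, ranged over 10.7 to 13 CPM at 3 months and 15.2 to 41.5 CPM at 12 months, and Ramp1, a subunit of the CGRP receptor, over 0.394 to 1.78 CPM at 3 months and 2.09 to 6.89 CPM at 12 months. DESeq2 called these 5 genes at adjusted p of 0.00733, 0.0162, 0.0136, 0.0201 and 0.021, in the order named.

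Mmp3, stromelysin 1, which degrades matrix, stood at 25.7, 33.1, 17.8 and 36.1 CPM at 3 months and 719, 335, 87.6 and 479 CPM at 12 months, a 14.4-fold fitted difference (log2 3.85 ± 1.03, edgeR adjusted p = 0.481, DESeq2 adjusted p = 0.00733). The 12-month cultures themselves differed widely, and S7, the library with both Xist and Y-linked transcripts, was the closest to the 3-month range. In an edgeR fit of the WT samples without S7, Mmp3 was the 1 gene that passed.

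As3mt, the arsenite methyltransferase, stood at 1.44, 2.31, 3.22 and 2.69 CPM at 3 months and 19, 18.2, 11.2 and 21.2 CPM at 12 months. The lowest 12-month value, 11.2 CPM in S7, was above the highest 3-month value, 3.22 CPM in S5 (log2 difference 2.85 ± 0.68). Pak1, a kinase that acts on the cytoskeleton, ranged over 51.4 to 70.5 CPM at 3 months and 81.4 to 97.5 CPM at 12 months, and Nt5c3b, a nucleotidase, over 14.8 to 22.8 CPM at 3 months and 30.6 to 32.9 CPM at 12 months. These differences of 0.61 ± 0.15 and 0.74 ± 0.17 were small beside those above, and the groups did not overlap in either gene. Nol3, an inhibitor of apoptosis, differed by 1.20 ± 0.29, and Fjx1 by 1.41 ± 0.35. Itgb4, the integrin beta 4 subunit found on epithelia and Schwann cells, stood at 4.22, 7.44, 2.79 and 4.51 CPM at 3 months and 13.7, 119, 19.3 and 9.12 CPM at 12 months, so its mean at 12 months rests on S6. Angpt4, an angiopoietin, overlapped, at 9.21 to 33.2 CPM at 3 months and 30.4 to 94 CPM at 12 months. The weakly expressed Ooep and Ppp1r36 differed by 3.15 ± 0.69 and 1.61 ± 0.41, and neither exceeded 2 CPM in any WT library.

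**Figure D3:**
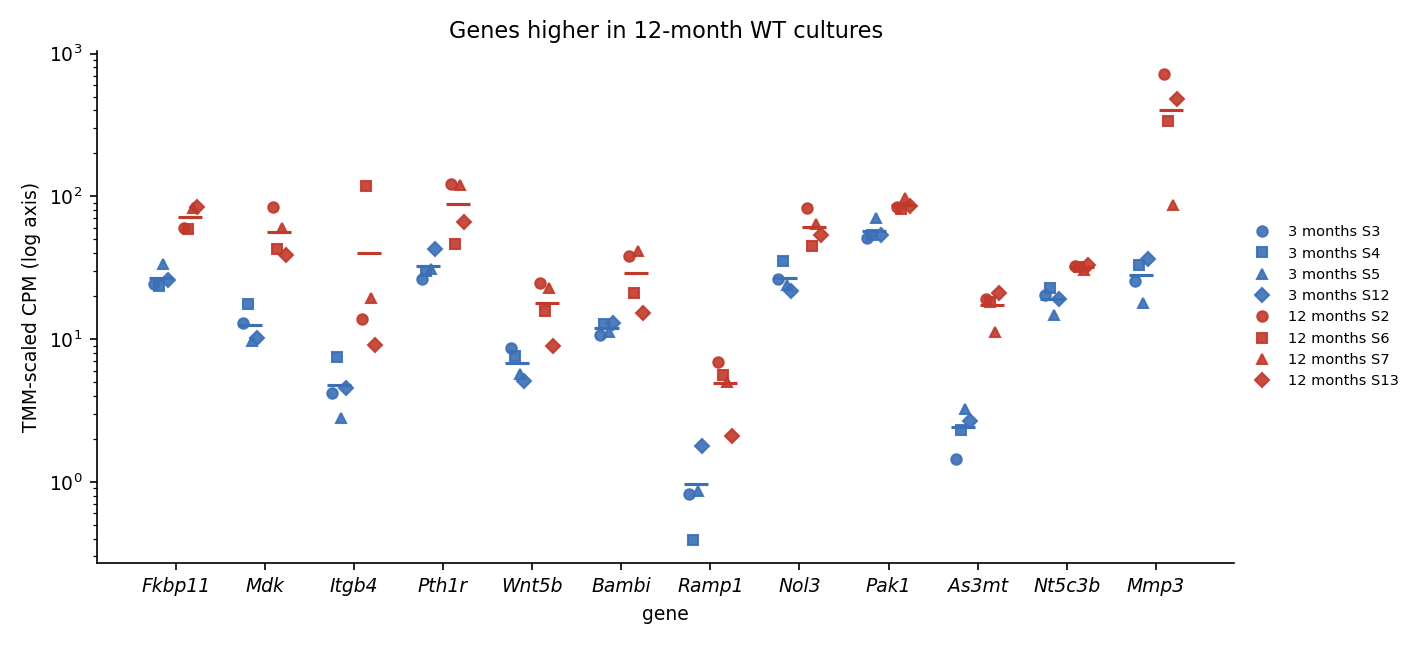
Level of 12 genes that were higher at 12 months (horizontal axis) in TMM-scaled CPM on a log axis, with 1 point per WT culture, blue at 3 months and red at 12 months, and bars for group means. In all 12 genes the colours do not overlap, which follows from the choice of genes with ranges apart. Angpt4, which overlapped, is not shown. The red points of Nt5c3b lie between 30.6 and 32.9 CPM, while Mmp3 spans 87.6 to 719 CPM and Itgb4 9.12 to 119 CPM at 12 months.

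Outside the groups above, the genes lower at 12 months had varied roles. Gpr35, a G protein-coupled receptor for tryptophan metabolites, stood at 4.88, 4.14, 2.79 and 6.84 CPM at 3 months and 0.0574, 0.096, 0.176 and 0.475 CPM at 12 months. It did not exceed 0.475 CPM in the 12-month cultures, and the log2 difference was -4.48 ± 0.91 (DESeq2 adjusted p = 0.000404). Slc38a1, a glutamine transporter, stood at 67.3, 46, 113 and 216 CPM at 3 months and 28.2, 22.1, 19.9 and 26.6 CPM at 12 months. The 3-month cultures differed widely among themselves, and all lay above the 12-month cultures. Zfhx3, a large homeodomain factor, ranged over 75.5 to 99.5 CPM at 3 months and 26.4 to 54.5 CPM at 12 months and Ostm1, a partner of a lysosomal chloride transporter, over 63.5 to 85 CPM at 3 months and 39.2 to 49 CPM at 12 months. The vessel-destabilising ligand Angpt2 overlapped between the ages and rests on S5, which held 24.2 CPM against 0.38 to 5.9 CPM elsewhere. The linker histone H1f3 ran over 1.68 to 9.25 CPM at 3 months and 0.903 to 1.85 CPM at 12 months.

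Patterning genes differed in mixed directions. Of 42 Hox and Hox cofactor genes, 27 were lower and 15 higher, with a median of -0.47 (-0.27 without S12). In 6 the ranges were apart and lower, and in 1 apart and higher, against 4.07% and 4.03% of all genes. Meis1, a Hox cofactor, was at 11.7 to 17.2 CPM at 3 months and 6.41 to 8.93 CPM at 12 months (log2 difference -0.81 ± 0.21, DESeq2 adjusted p = 0.0274). Hoxc6 and Hoxb8 differed by -1.28 ± 0.45 and -2.76 ± 1.06, with ranges apart. Hoxa11, which patterns the middle segment of the limb, stood at 9.72, 9.85, 2.84 and 4.35 CPM at 3 months and 54.7, 8.02, 59.7 and 21.1 CPM at 12 months. It was high in S2, S7 and S13 and inside the 3-month range in S6.

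In the BMP and TGF-beta list 39 of 58 genes were lower, with a median of -0.23 (-0.12 without S12). Ranges were apart and lower in 5 and apart and higher in 1, against 4.07% and 4.03% of all genes. The activin antagonist Fst was at 218 to 550.5 CPM at 3 months and 132 to 235 CPM at 12 months, the differentiation inhibitor Id4 at 65.7 to 102 CPM at 3 months and 19.3 to 41.2 CPM at 12 months and the ligand Bmp5 at 18 to 63.1 CPM at 3 months and 3.99 to 14.4 CPM at 12 months. Fst overlapped through S12, and Id4 and Bmp5 did not overlap. The TGF-beta co-receptor Eng differed by -0.86 ± 0.34, with ranges apart. The 52 Wnt genes were near evenly split, with 28 higher and 24 lower: beside Wnt5b, the Wnt antagonist Frzb stood at 18.2, 15.6, 11.6 and 13.6 CPM at 3 months and 49.5, 43.8, 135 and 15.3 CPM at 12 months. S13 was inside the 3-month range for Frzb and the other 3 were above it. The Wnt effector Tcf7l2 differed by -0.65 ± 0.21, with ranges apart.

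Among 24 genes of the IGF axis, 15 were lower and the median was -0.35 (-0.16 without S6). Igf2bp3, an oncofetal RNA-binding protein, stood at 4.18, 4.33, 3.56 and 4.9 CPM at 3 months and 1.49, 1.06, 1.01 and 1.8 CPM at 12 months. The 4 cultures of each age lay close together and far from the other age (log2 difference -1.66 ± 0.54, edgeR adjusted p = 0.552). Imprinted growth genes were lower in 18 of 24 (median -0.55), with 2 apart and lower against 4.07% of all genes. The imprinted RNA H19 stood at 161, 259, 686 and 119 CPM at 3 months and 34.5, 28.8, 51.6 and 142 CPM at 12 months, and its neighbour Igf2 at 137, 194, 598 and 68 CPM at 3 months and 16.8, 10.1, 40.3 and 254 CPM at 12 months. Both were highest in S5 at 3 months and in S13 at 12 months, and both overlapped. Cdkn1c, an imprinted cell-cycle inhibitor, went the other way, at 6.15, 22.5, 6.78 and 5.14 CPM at 3 months and 154, 4.13, 56 and 31.2 CPM at 12 months. It was high in S2, S7 and S13, and S6 was the lowest of all 8.

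The medians of the chondrocyte and osteoblast lists moved when single cultures were left out. Of 28 chondrocyte genes, 19 were higher at 12 months with a median of 0.64, which was -0.03 without S7 and 1.36 without S5. Ranges were apart in 0 in either direction, against 4.03% of all genes higher and 4.07% lower. With voom and sample quality weights the chondrocyte median was 2.10, and 14 of the 28 were called higher, against 5.7% of all genes. Cilp, a cartilage matrix protein called by DESeq2 (adjusted p = 0.0427), stood at 23.6, 28.4, 113 and 56.9 CPM at 3 months and 1339, 117, 784 and 44.8 CPM at 12 months. It was highest in S2 and S7, as was Mia, a cartilage-secreted protein, at 0.574, 1.63, 3.65 and 1.38 CPM at 3 months and 21.4, 2.4, 28.2 and 2.23 CPM at 12 months. Col10a1, the collagen of hypertrophic cartilage, reached 99.2 CPM in S6 and stood between 1.14 and 7.54 CPM elsewhere. Among 26 osteoblast genes 14 were higher and 12 lower (median 0.07, and -0.20 without S7). Dmp1, of osteocytes, and Spp1, osteopontin, were highest in S7, at 12.9 and 7227 CPM, and both overlapped between the ages.

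Cell-cycle genes were fitted higher at 12 months almost throughout, in 46 of 48 genes of DNA replication (median 1.06) and 42 of 42 of mitosis (median 1.23). Without S6 the medians were 0.68 and 0.55. The cultures did not separate by age: ranges were apart and higher in 2 of the 48 and 0 of the 42, against 4.03% of all genes. Mki67, a marker of proliferation, stood at 45.3, 24.8, 25.5 and 15.7 CPM at 3 months and 17, 93.3, 17.2 and 95.6 CPM at 12 months. S6 and S13 were high, and S2 and S7 lay at the level of the 3-month cultures, the same split as on the first principal component. The helicase subunit Mcm6 (37.2, 27.5, 24.9 and 23.7 CPM at 3 months and 33.8, 127, 32.9 and 102 CPM at 12 months) and the mitotic kinase Cdk1 (31.7, 24.1, 18 and 18.2 CPM at 3 months and 21.4, 95.8, 26.1 and 77 CPM at 12 months) repeated it. With voom and sample quality weights, where S3 had the largest weight of the WT libraries, the 2 medians were 0.00 and -0.31; voom without weights was not run.

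Inhibitors of cyclin-dependent kinases, several of which mark senescent cells, gave no common direction, with 3 higher and 4 lower of 7. Cdkn2a, the locus of p16 and p19, stood at 147, 177, 77.8 and 138 CPM at 3 months and 142, 169, 120.2 and 98.3 CPM at 12 months. The ages overlapped fully (log2 difference -0.03 ± 0.49, 95% confidence interval -1.06 to 1.01). Cdkn2b was at 134 to 209 CPM at 3 months and 102 to 171 CPM at 12 months. Cdkn2c and Cdkn2d differed by 0.72 ± 0.33 and 0.77 ± 0.39, higher with ranges apart, 2 of the 7 against 4.03% of all genes. Of 39 genes of the senescence secretome and NF-kB, 25 were higher and 14 lower (median 0.18). Mmp3 alone was apart and higher and Il6 alone apart and lower, against 4.03% and 4.07% of all genes. Il6 stood at 21.9, 29.9, 10.1 and 26.5 CPM at 3 months and 0.631, 3.55, 0.483 and 5.65 CPM at 12 months, a log2 difference of -3.10 ± 1.17, so 2 well-known members of the secretome lay in opposite directions.

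Small shifts in 1 direction were found over many genes of protein synthesis and respiration. Of 77 cytosolic ribosomal protein genes 73 were higher at 12 months (median 0.47), with 21 apart and higher against 4.03% of all genes. Of 73 nuclear genes of oxidative phosphorylation 67 were higher (median 0.28), with 11 apart and higher against the same 4.03%. Rpl11 was at 7.04 to 14.8 CPM at 3 months and 21.7 to 26 CPM at 12 months and the complex I subunit Ndufb8 at 20.1 to 51.5 CPM at 3 months and 54.2 to 84.6 CPM at 12 months. Genes of cholesterol synthesis were higher in 24 of 29 (median 0.33, and 0.22 without S6), and without S6 and S7 in 17 of 29 (median 0.09). Ranges were apart and higher in 5 and apart and lower in 2, against 4.03% and 4.07% of all genes. Fdft1, the squalene synthase, stood at 30.1, 27.3, 24.1 and 24.2 CPM at 3 months and 37, 46.4, 47 and 46.8 CPM at 12 months, and Mvk and Nsdhl also had ranges apart. Reads of ribosomal protein genes can be shared with their many pseudogenes, so their levels are uncertain.

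These shifts ran alongside transcript length. Among 92.3% of tested genes with a length in the GENCODE annotation, split by length into 5 groups of like size, the shortest group (up to 2005 bases) had a median log2 difference of 0.28 and the longest (from 5280 bases) -0.22. Ranges were apart and higher in 8.17% of the shortest and 1.27% of the longest group, and apart and lower in 1.53% and 8.77%. In Het the 2 medians were 0.29 and -0.08, and both were 0.00 without S9 and S15. The gap between the 2 medians was 0.50, and between 0.30 (without S5) and 0.62 (without S4) when single WT libraries were left out. It was 0.30 with voom. Of the ribosomal genes 64 of 77, and of the oxidative phosphorylation genes 56 of 73, were in the shortest group. The hypoxia list had 9 members in the shortest group, all 9 lower with a median of -0.76, and 3 in the longest, with a median of -0.37. Histone demethylases had 11 of 21 in the longest. The part of length in these lists was not tested.

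**Figure D4:**
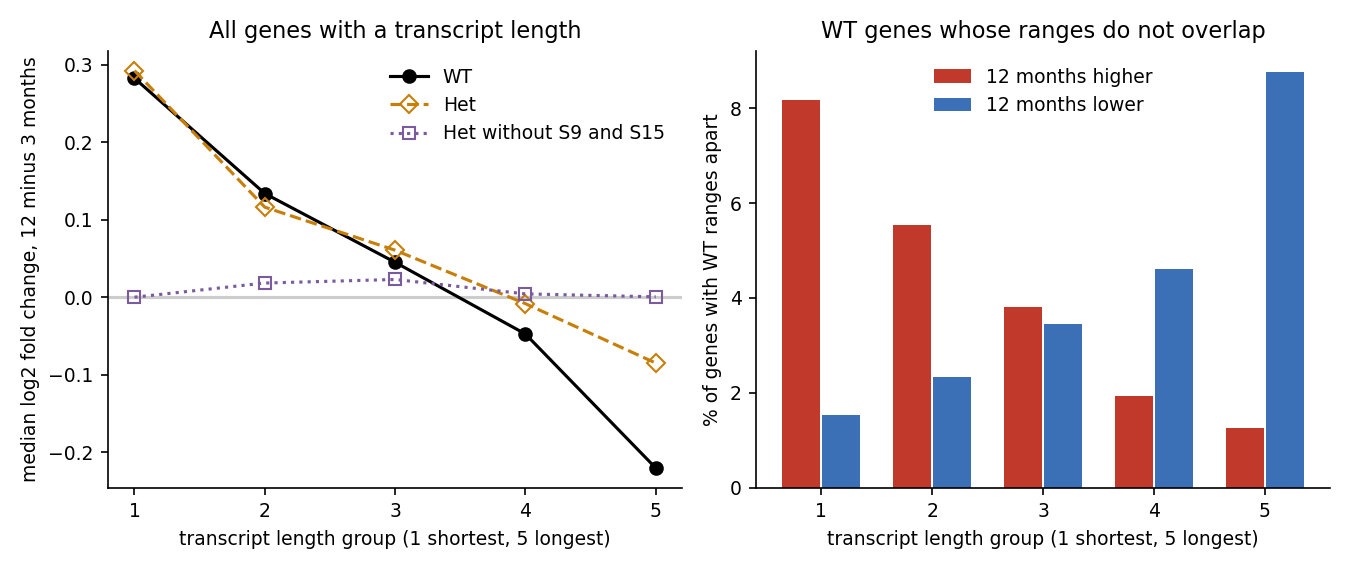
Left, median log2 difference between 12 and 3 months (vertical axis) in 5 groups of genes of rising transcript length (horizontal axis), for WT, for Het and for Het without S9 and S15; right, the percentage of genes in each group whose WT ranges are apart. The WT medians go from 0.28 to -0.22 and those of Het from 0.29 to -0.08, while those of Het without S9 and S15 stay between 0.00 and 0.02.

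Interferon-stimulated genes (53 of 60 higher, median 0.56) and genes of MHC class I and antigen presentation (23 of 24, median 0.52) were also fitted higher, but their ranges were apart and higher in 0 and 2 genes, against 4.03% of all genes. Ifi27l2a, an interferon-induced mitochondrial protein, was at 0.435 to 3.4 CPM at 3 months and 1.1 to 20.9 CPM at 12 months. Without S2 the interferon median was 0.21 and without S6 it was 0.80. The MHC median was 0.24 without S2. The macrophage list also stood highest in S2 and S7, at a mean log2 CPM of 5.69 and 4.56, and lowest in S6, at -0.28. Its median was 0.67, and -0.56 without S2, and its part in these results was not tested.

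Ezh2 (Entrez Gene 14056, chromosome 6, 47530274 to 47595270), the methyltransferase of Polycomb repressive complex 2 (PRC2), stood at 13.6, 13.4, 14.3 and 9.17 CPM at 3 months and 7.64, 35.7, 13.1 and 22.8 CPM at 12 months. S6 and S13, the cultures high in Mki67, were the highest, and S2 was the lowest of all 8. The log2 difference was 0.65 ± 0.39 (95% confidence interval -0.18 to 1.48, edgeR adjusted p = 0.648). Of 13 PRC2 genes, 7 were higher and 6 lower with 0 apart, against 4.03% of all genes apart and higher and 4.07% apart and lower. The accessory subunit Phf19 differed by 1.35 ± 0.61, with overlap. Histone demethylases were lower in 19 of 21 (median -0.33), with 5 apart and lower against 4.07% of all genes. They were Kdm3a, Phf8, Kdm4b, Kdm5a and Kdm5b, and apart from Kdm3a their differences were modest, from -0.67 (Kdm5a) to -0.42 (Kdm4b).

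**Figure D5:**
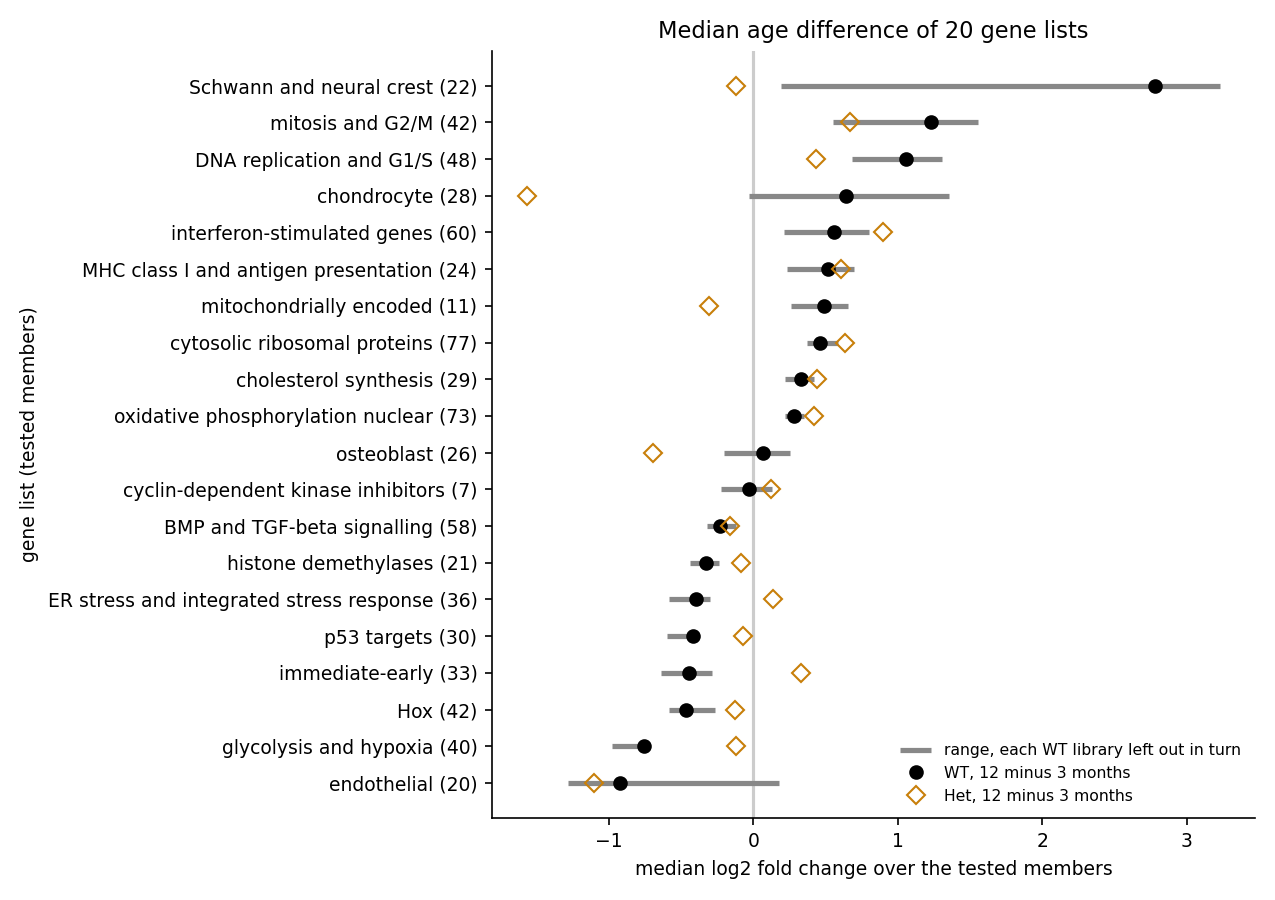
Median log2 difference between 12 and 3 months (horizontal axis) over the tested members of 20 gene lists (vertical axis, number tested in parentheses), with black points for WT, grey lines for the range when each WT library was left out in turn and open diamonds for Het. The hypoxia line runs from -0.98 to -0.71 with the Het diamond at -0.12, while the Schwann line runs from 0.19 to 3.23.

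Het cultures, which share no sample with the WT cultures, were compared gene by gene for the same age contrast. In Het, 0 of 14897 genes (0%) passed edgeR, 489 had an unadjusted p under 0.05 and DESeq2 called 1. The test of the difference between the genotypes' age effects passed in 0 genes (0%), with 858 at an unadjusted p under 0.05, while DESeq2 called 35 and voom with quality weights 939. Across the 14897 genes, the fitted differences of WT and Het had a Pearson correlation of 0.05 and a Spearman correlation of 0.16. Genes are not independent replicates. Of the 15 higher genes named above, 1 was also fitted higher in Het, and of the 15 lower genes 10 were also fitted lower. Mdk, for example, was at 23.6 ± 9.58 CPM in Het 3M and 15.7 ± 10.3 CPM in Het 12M (mean ± standard deviation). Its log2 difference was -0.60 ± 0.44 (SE) in Het against 2.16 ± 0.47 in WT. These genes were picked for their WT values, so no test of the difference is read from them. Chondrocyte genes had a median of 0.64 in WT, which was -0.03 without S7, and of -1.57 in Het (27 of 28 lower; without S9 and S15 25 of 28, median -1.41), and 12 of the 28 had an unadjusted p under 0.05 for the difference, against 5.76% of all genes. That difference contains both age differences just given, so the count is a description. Ribosomal and nuclear oxidative phosphorylation genes were fitted higher in both genotypes, with Het medians of 0.64 and 0.42, which were 0.18 and 0.02 without S9 and S15. The mitochondrially encoded genes were fitted higher in 11 of 11 in WT and lower in 9 of 11 in Het. Their Het median was -0.30, and -0.28 without S9 and S15.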

How the data were processed

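RNA was sequenced in 17 biological samples. The authors deposited raw read counts per Entrez gene (27179 genes, 68 columns), which per the submitters' processing notes were made with Subread and featureCounts on mm10; versions, annotation and the handling of multi-mapped reads are not given in the sources used here. The 4 columns per sample differed by about counting noise (chi-square per degree of freedom 1 to 1.07 within a WT culture, at least 40.9 between cultures) and were summed. Symbols came from RefSeq GRCm38.p6 for 25275 genes; the other 1904 held 0.573% of counts.

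One edgeR 4.0.16 quasi-likelihood fit (R 4.3.3, TMM, filterByExpr, 14897 genes, 4 group terms, no sex term because sex-linked transcripts contradict the labels) covered 17 samples, with Benjamini-Hochberg adjustment over all genes and a threshold of 0.05. Log2 values are 12 minus 3 months ± SE, and levels are TMM-scaled CPM. Het levels given with ± are means and standard deviations. DESeq2 1.42.0, limma 3.58.1 voom and other alternatives are listed below. Single values had exact permutation tests. List levels used log2 CPM with a prior count of 2. The fit was run on simulated data with a smaller spread between cultures than that of the 17 samples. That run does not show how many differences the fit could detect here. Transcript length is that of the longest GENCODE vM21 transcript.

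Samples were grouped by labels. The samples, the 53 gene lists and the naming rule were chosen with earlier results of these data known. The rule named Ezh2, the 15 genes with the smallest p per direction with a mean of at least 1 CPM at either age (predicted genes left out), up to 5 members per list by p, and check genes; Slc2a1, Slc16a3, Ldha, Pgk1, Gapdh, P4ha2, Pfkl, Pdk1, Egln1, Cdkn2a, Cdkn2b and Igf2 were added after their values were seen.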

Additional observations from a re-analysis of the deposited data

Results flagged for a closer look

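In 9 of 170 groups of 4 samples, 1 sample stood far from the other 3, by the gap to its nearest neighbour against the range of the group. Chance marks about 1 in 20 such groups. Among single genes, Itgb4 was at 119 CPM in WT 12M S6, Pak1 at 70.5 CPM in WT 3M S5, P4ha1 at 310.6 CPM in WT 12M S7 and Klf4 at 96.8 CPM in WT 12M S13, each the highest of its group. Ezh2 was lowest in WT 3M S12, at 9.17 CPM. Among list levels, as mean log2 CPM, the fibroblast list was lowest in WT 12M S6 at 6.08, and the developmental transcription factors list was highest in WT 12M S6 at 2.73. The PRC1 list was highest in WT 3M S12 at 4.57, and the IGF axis list lowest in WT 3M S12 at 5.80. S6 accounts for 3 of the 9 and is the library with Sox10 and Foxd3.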

How the results depend on the processing

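No paired analysis was possible because the replicate numbers that the groups share in the labels are technical replicates of 1 culture, and the S numbers belong to 1 group each. Against 0 genes called by edgeR, DESeq2 called 53 (25 higher, 28 lower) and voom with sample quality weights 1508 (849 and 659); of the 53, voom also called 47. Alternatives chosen after seeing the data called 5 without Het 12M S9 and S15 (2 and 3), 1 (1 higher) in the WT samples alone without S7, and 250 with DESeq2 on the WT samples alone (115 and 135). Robust fitting, RLE scaling, library totals, no filter, a 1 CPM filter, a labelled-sex term, a Y-linked covariate, the WT samples alone, leaving out S6 and S7, technical replicate 1 alone and each of the 8 samples left out in turn gave 0. Genes with an unadjusted p under 0.05 numbered 1224 in the reported fit, 4134 with voom, 728 without S6 and S7, 2434 without Het S9 and S15, 2106 with DESeq2 on the WT samples alone, and 715 to 1231 with single samples left out, the lowest without WT 3M S5. For Het, DESeq2 and voom each called 1 gene, and for the difference between genotypes 35 and 939. Of 109 genes over 23 alternatives, 13 of 2498 fold changes changed sign: Col18a1 without S6 and S7 (-0.10), Mcm5 (-0.10), Lmnb1 (-0.13), Ezh2 (-0.055) and Mki67 (-0.64) with voom, Col10a1 without S6 and S7 (-0.41) and without S6 (-0.18), Gapdh without S6 and S7 (-0.0055), and Cdkn2a, fitted at -0.03, without S3 (0.01), S4 (0.13), S7 (0.01) or S13 (0.09) and in WT samples alone without S7 (0.011). With single samples left out, Col10a1 ran from -0.18 to 2.78 and Cdkn2a from -0.22 to 0.13. Of 53 list medians, 33 changed sign in at least 1 alternative; those of the hypoxia, p53, stress response, immediate-early, ribosomal and oxidative phosphorylation lists did not. Causes were not tested. With 4 cultures a group the smallest exact p for a single value is 0.0286, and depth limits genes near 0 CPM such as Gpr35 and Ooep.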

Other observations

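Col18a1, a basement membrane collagen, stood at 46.9, 78.4, 32.5 and 33 CPM at 3 months and 61.3, 2919, 71.1 and 27.7 CPM at 12 months. S6 held most of the 12-month level, and the other 3 cultures overlapped the 3-month range. Of 29 collagen genes, 20 were fitted higher with a median of 0.48, which was -0.33 without S6. Complement and acute phase genes were higher in 14 of 22 in WT (median 0.52) and lower in 17 of 22 in Het (median -0.59), with an unadjusted p under 0.05 for the difference between genotypes in 9 of 22, against 5.76% of all genes. That difference contains both age differences just given, so the count is a description.

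Autophagy and mitophagy genes were lower in 25 of 32 (median -0.17, 3 apart and lower, 1 apart and higher, against 4.07% and 4.03% of all genes). The mitochondrially encoded genes were fitted higher in 11 of 11 in WT (median 0.49, and 0.26 without S13), with a mitochondrial share of 1.73% to 2.26% of counts at 3 months and 1.67% to 3.72% at 12 months (2-sided exact permutation p = 0.2).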
